A study of Mus musculus with 6 samples.

Results

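The oxidative phosphorylation genes of the nucleus were compared between livers of Sesn3 KO and wild-type (WT) mice. Members were the rows of the count table whose symbol starts with Nduf, Uqcr, Cox4i, Cox5, Cox6, Cox7, Cox8 or Atp5, together with Sdha, Sdhb, Sdhc, Sdhd and Cyc1. The rule found 93 genes of 24421, of which 43 were assigned to complex I (7 of them assembly factors), 4 to complex II, 9 to complex III, 20 to complex IV and 17 to complex V. Liver RNA came from male C57BL/6 mice aged 4 months, 3 samples per genotype, and both genotypes had eaten for 4 weeks a diet rich in fat (20% of energy from protein, 40% from fat, 40% from carbohydrate) with cholesterol at 1.25% and sodium cholate, a bile salt, at 0.5%. The labels do not say how the Sesn3 allele was made or whether mice were littermates. Libraries held 18882220 to 24098512 counts. Sesn3, which encodes the stress-inducible protein sestrin 3, had 18, 18 and 16 counts in the KO libraries and 172, 200 and 195 in the WT libraries, 14.4-fold lower in KO (edgeR quasi-likelihood test with Benjamini-Hochberg adjustment, adjusted p = 0.00183).

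Oxidative phosphorylation takes place at the inner mitochondrial membrane. Complexes I and II feed electrons from NADH and from succinate into coenzyme Q, complex III passes them to cytochrome c, complex IV reduces oxygen, and complex V uses the proton gradient to make ATP. Complex II is encoded wholly in the nucleus, while the other complexes also hold subunits encoded by mitochondrial DNA, which are not analysed here. In hepatocytes the chain oxidises the NADH and reduced flavins from fatty acid oxidation and the citric acid cycle.

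Nearly all members lay a little lower in KO livers, and few passed the test one by one. Of 88 members tested, 84 had a negative log2 fold change (KO minus WT), against 49.7% of all 12945 tested genes. The median over the members was -0.30 and over all tested genes 0.0027. In 58 members (65.9%) every KO library lay below every WT library, which held for 16.6% of all tested genes, and in 1 member every KO library lay above, against 16.9% of all. At an adjusted p under 0.05, 2 members fell (Ndufb2 and Ndufb3) and 1 rose (Cox6b2), or 3.41% of the members tested against a background of 6.94% of all genes (3.58% lower and 3.36% higher). The share of members that passed was therefore not above the background. It counts Cox6b2, which passed the filter on low counts only through the KO libraries, so that it had to differ. That call is given as a description, and Cox6b2 is also the 1 higher member in the other counts here. At an unadjusted p under 0.05 there were 40 lower members and 1 higher, against 13.3% and 12.5% of all genes. DESeq2 called 18 members lower and 1 higher, against backgrounds of 8.2% and 7.11%. With each library left out in turn, edgeR called 0 to 2 members.

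The members shared their libraries and varied together, so that their counts of agreement are not independent. WT replicate 2 held the highest value of 77 of the 88 tested members, and KO replicate 1 the lowest of 59. These 2 libraries also had the lowest (0.856) and the highest (1.147) TMM factor, the factor by which edgeR rescales library sizes. Relative to the WT mean, the median member stood at a log2 of -0.39, -0.27 and -0.23 in KO replicates 1 to 3 and at -0.03, 0.15 and -0.13 in WT replicates 1 to 3. The KO libraries were thus all below the lowest WT library by this measure, by a margin smaller than the span of the WT libraries. The median over the members was -0.21 without WT replicate 2 and -0.25 without KO replicate 1. With library size as the only scaling the median over all genes moved to 0.21 and that over the members to -0.09, with 66 of 88 negative and 0 lower calls (1.99% of all genes were), while the difference between both medians remained at -0.30. The median coefficient of variation of the tested members was 6.90% in KO and 11.8% in WT, below the 13.3% and 16.7% of all tested genes.

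**Figure D1:**
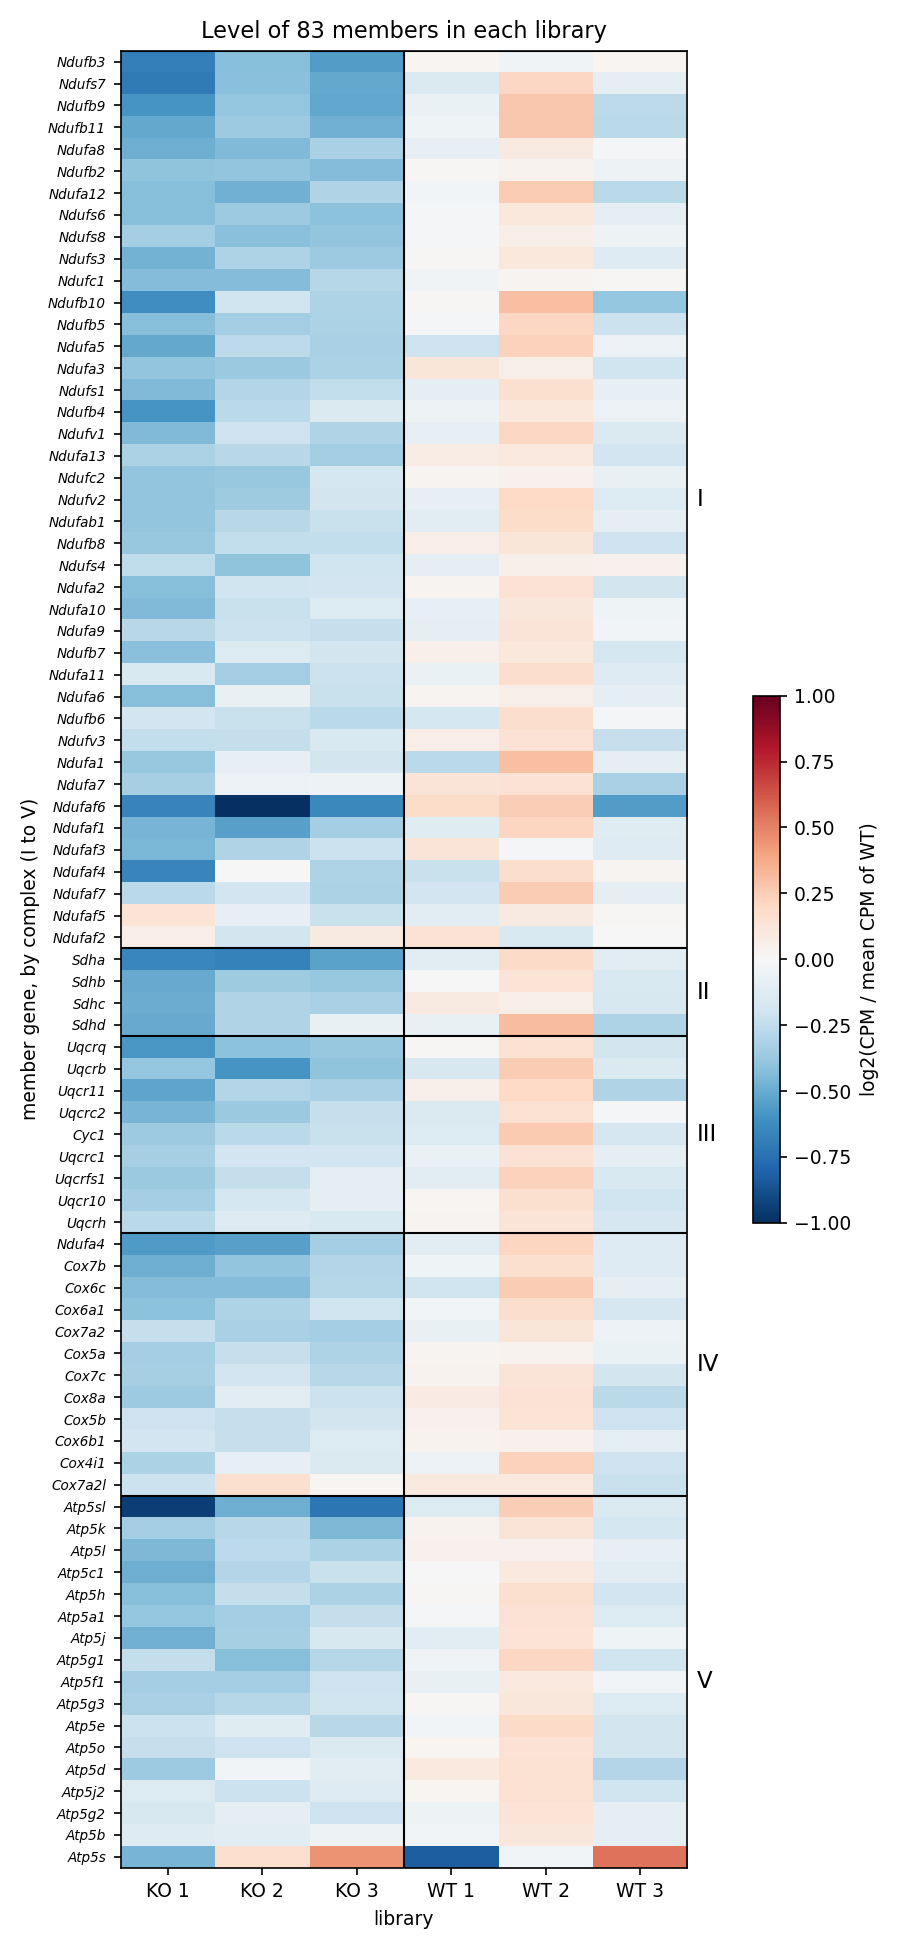
Level of 83 tested members with a mean of at least 2 CPM (CPM: counts relative to the TMM-scaled library size) in both groups, by complex, as log2 of CPM over the WT mean in each of the 6 libraries. Colour is blue below and red above the WT mean, limited at 1 log2 unit; the KO columns are mostly blue and WT replicate 2 is the reddest column.

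The members' summed level was lower in every KO library than in any WT library. All 93 members summed to 10350, 11070 and 11380 CPM in KO replicates 1 to 3 and to 13070, 14850 and 12080 CPM in WT replicates 1 to 3, 18.0% lower in KO by the means. TMM-scaled values do not sum to a fixed total, and the summed CPM of all tested genes was itself 13.7% lower in KO, so the members' share of the counts moved less: it was 1.15% to 1.19% in KO and 1.20% to 1.27% in WT. The difference was widest in complex II, whose summed CPM was 27.4% lower (822 ± 55.0 in KO, 1132 ± 139 in WT; SD, n = 3 each). Complexes I, III and IV were lower by 19.7%, 19.3% and 16.9%, and complex V by 14.7% (4074 ± 171 against 4774 ± 438 CPM; SD, n = 3 each). Such sums follow their most abundant genes, in complex II Sdha (mean 308 CPM in KO, 474 in WT). In complex V these were Atp5b (1256 in KO, 1342 in WT) and Atp5a1 (900 in KO, 1126 in WT).

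The complexes kept their order of size in both genotypes, and the share of the members' RNA differed between the groups with no overlap in each complex but complex III. Each complex's share of the members' CPM does not depend on the scaling. The shares within a library add up to its whole, so that a larger share of any complex leaves less for the others. They are therefore not separate results. Complex II made up 7.41%, 7.44% and 7.71% in the KO libraries and 8.43%, 8.64% and 8.37% in the WT libraries. Complex V made up 37.7%, 36.8% and 37.3% in KO and 36.1%, 35.3% and 36.1% in WT. In neither did the groups overlap, complex II taking a smaller and complex V a larger share in KO. Complex I also took a smaller share in KO (24.07% to 24.76%, against 24.78% to 24.95% in WT) and complex IV a larger one (17.26% to 17.52% against 17.00% to 17.22%), both by narrow margins. Complex III overlapped, at 13.26% to 13.66% in KO and 13.42% to 13.97% in WT. As a share of all counts, complex II lay between 0.0879% and 0.0885% in KO and between 0.1002% and 0.1098% in WT. Complex V overlapped, at 0.428% to 0.448% in KO and 0.432% to 0.448% in WT. So did complex IV, at 0.1981% to 0.2086% in KO and 0.2037% to 0.2185% in WT, whereas complexes I and III did not. No test was made of these sums, which are a description of the 6 libraries.

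**Figure D2:**
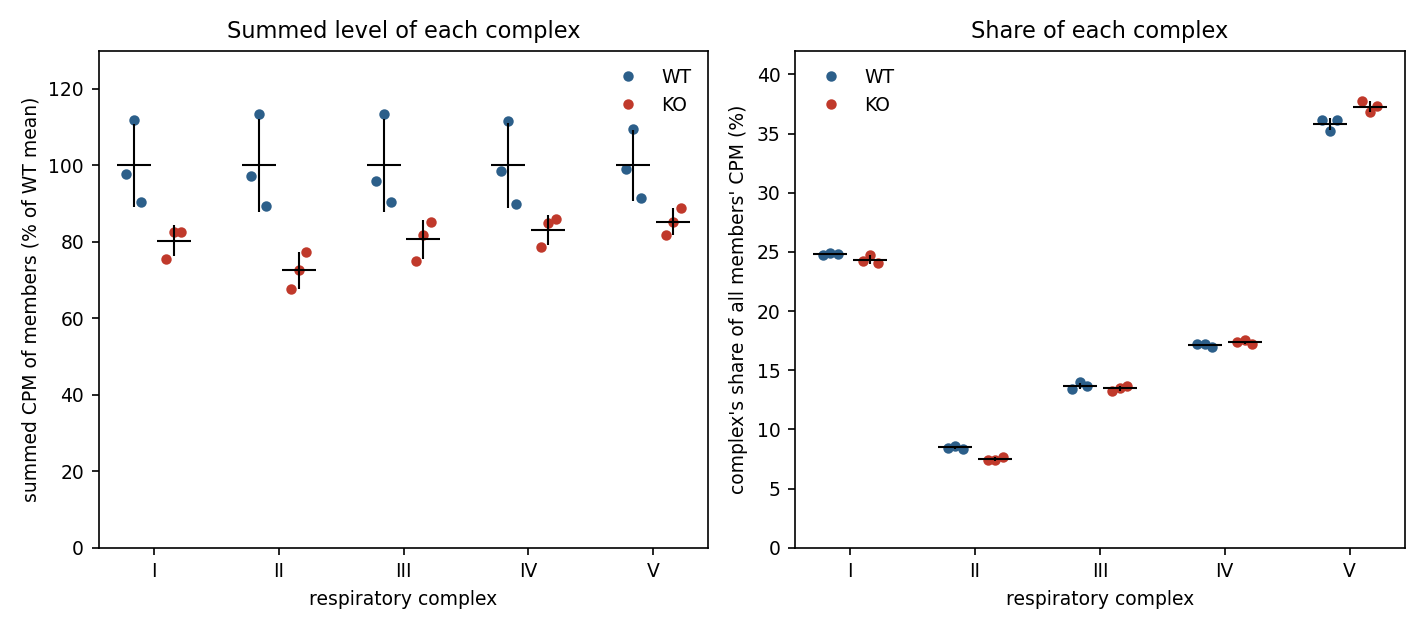
Left, summed CPM of the members of each complex in each library as a percent of the WT mean; right, each complex's share of the summed CPM of all members. Points are libraries (blue WT, red KO) and black marks give the mean ± SD of 3; on the left KO points lie below WT points in every complex, and on the right complex II is smaller (7.52% against 8.48% on average) and complex V larger (37.3% against 35.8%) in KO, with narrower gaps in complexes I and IV and overlap in complex III.

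Complex I, the NADH dehydrogenase, held both of the members that fell. They were 4.76% of its tested genes, near the 3.58% of all tested genes called lower. All 42 tested genes of the complex had a negative fold change (median -0.31), against 49.7% of all tested genes. In 32 (76.2%) the KO libraries lay below the WT libraries with no overlap, against 16.6% of all tested genes. At an unadjusted p under 0.05 were 21, against 13.3% of all tested genes lower in KO. Ndufb3, an accessory subunit of the distal membrane arm, was at 22.6, 27.1 and 24.6 CPM in the KO libraries and at 36.8, 35.5 and 36.9 CPM in the WT libraries. The groups did not overlap, and the WT libraries lay close together. Its log2 fold change was -0.55 (SE 0.11, edgeR quasi-likelihood adjusted p = 0.0317). Ndufb2, a further accessory subunit of the same part of the arm, was at 43.7, 43.8 and 42.6 CPM in KO and at 58.1, 59.1 and 55.7 CPM in WT. Both groups were tight and well separated, with a log2 fold change of -0.41 (SE 0.09, adjusted p = 0.0442). With 1 library left out, Ndufb3 passed in 1 of 6 fits, the one without WT replicate 2, and missed the threshold in the others (adjusted p of up to 0.1005), and Ndufb2 missed it in all 6 (up to 0.164). Ndufb3 has 1 other annotated gene at 96.8% identity, and 3 genes overlap Ndufb2, so that both counts may hold reads of other genes.

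The promoter windows of both genes are shown because they carry the calls in complex I. RefSeq windows (GRCm38.p6) run from 250 bases before to 50 after a transcription start and were found for 76 members (82 windows). Capitals mark matches, on both strands, to letters bound by known regulators of mitochondrial genes, GCGCA, any base and GCGC for NRF1, CCGGAAG for ETS factors such as GABPA, AAGATGGC for YY1 and AAGGTCA for the estrogen-related receptors (ERR). The 4 motifs were searched separately, so that matches could overlap. Ndufb2 (chr6:39592315-39592614, plus strand) has 1 match, to the ERR letters at base -181 counted from the start, and Ndufb3 (chr1:58586147-58586446, plus strand) has 0.
Ndufb2: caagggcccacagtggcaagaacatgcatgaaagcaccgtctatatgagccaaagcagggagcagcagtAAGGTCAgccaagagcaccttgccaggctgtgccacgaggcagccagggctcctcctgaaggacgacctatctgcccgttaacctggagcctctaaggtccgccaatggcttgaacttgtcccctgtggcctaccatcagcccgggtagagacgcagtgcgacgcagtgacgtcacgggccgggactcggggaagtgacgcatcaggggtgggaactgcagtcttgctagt
Ndufb3: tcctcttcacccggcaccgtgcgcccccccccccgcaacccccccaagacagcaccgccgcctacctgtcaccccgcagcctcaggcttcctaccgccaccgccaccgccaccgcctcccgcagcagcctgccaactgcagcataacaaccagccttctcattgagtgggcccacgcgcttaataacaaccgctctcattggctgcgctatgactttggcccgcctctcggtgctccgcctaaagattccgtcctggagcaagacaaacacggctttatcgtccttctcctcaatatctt
The NRF1 letters stood in 24.4% of the members' windows, against 9.38% of the windows of tested genes and 4.6% of all windows. The YY1 letters stood in 14.6% of the members' windows against 4.2% and 2.75%, the ERR letters in 9.76% against 3.51% and 4.72%, and the ETS letters in 20.7% against 16.5% and 8.86%. Median GC content was 58.0% in the members' windows and 60.3% in those of tested genes. Fold changes were alike with and without a match: the median was -0.30 in 18 tested members with NRF1 letters and -0.29 in 55 without, and -0.32 in 7 with ERR letters against -0.30 in 66 without. A match is a description of letters and not a bound site.

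Within complex I both arms lay lower in KO. In the matrix arm, which takes up NADH and carries the iron-sulfur clusters, the median was -0.31 over 16 genes, 12 of them with no overlap. By edgeR 0 were called, with 8 at an unadjusted p under 0.05 and 4 called by DESeq2. Of all tested genes, 16.6% were lower with no overlap, 13.3% at an unadjusted p under 0.05 and 8.2% by DESeq2. The largest difference there was that of Ndufs7, a core subunit next to the coenzyme Q site, at 46.2, 56.2 and 52.6 CPM in KO and 67.8, 86.9 and 70.7 CPM in WT. The groups did not overlap (log2 -0.54, SE 0.14), but the test was missed (edgeR adjusted p = 0.0584). Ndufs8, also a core subunit with iron-sulfur clusters, had a log2 of -0.38 (adjusted p = 0.0611) and Ndufs6, an accessory subunit, -0.40 (adjusted p = 0.0607). In the membrane arm, which pumps protons, 15 of 18 tested genes (83.3%) had no overlap, against the same 16.6% of all (median -0.34). Ndufa8 (log2 -0.41, adjusted p = 0.0628) and Ndufc1 (log2 -0.38, adjusted p = 0.0632) came closest to the threshold after the 2 called genes. Per kb of transcript, Ndufb9 (196 ± 14.4 in KO, 276 ± 52.4 CPM per kb in WT; SD, n = 3 each) and Ndufa6 (169 ± 20.2 and 199 ± 11.3) were the most abundant genes of the complex.

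The assembly factors of complex I, which build it and do not stay in it, differed among themselves. Ndufaf6 was at 9.68, 7.41 and 9.82 CPM in KO and at 17.4, 18.2 and 10.4 CPM in WT. Its log2 fold change of -0.77 (SE 0.24) was the largest of the complex, but WT replicate 3 lay near the KO libraries and the test was missed (edgeR adjusted p = 0.0950). Ndufaf2 and Ndufaf5 had log2 fold changes of -0.0048 and -0.05 with overlapping groups. The groups overlapped also in Ndufaf4 (log2 -0.30), whereas Ndufaf1, Ndufaf3 and Ndufaf7 had no overlap, at -0.45, -0.32 and -0.26. Ndufs5, a subunit of the membrane arm, had 0 counts in every library, and 1 other annotated gene is 99.4% identical to it. Ndufb4, with 1 such gene at 100%, was tested and had a log2 of -0.32 with no overlap.

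**Figure D3:**
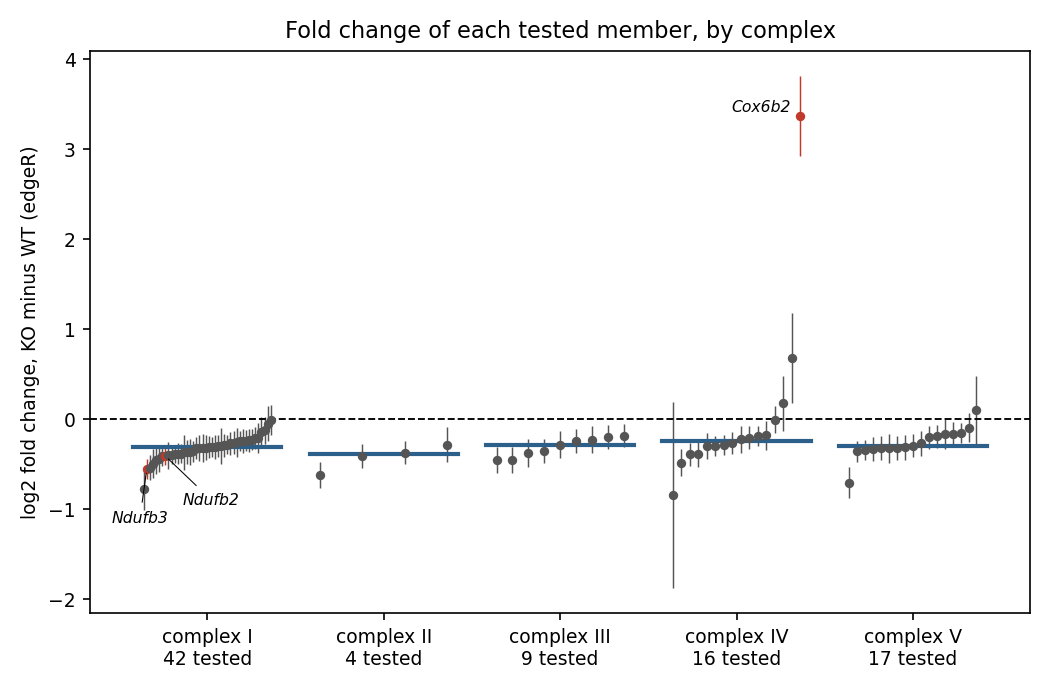
Log2 fold change (KO minus WT, edgeR) of each of the 88 tested members, ordered by size within each complex, with bars of 1 SE; red points passed an adjusted p of 0.05. Blue lines are the medians of the complexes, from -0.39 (complex II) to -0.24 (complex IV), all below the dashed line at the median of all tested genes, also with library size as the only scaling.

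Complex II, the succinate dehydrogenase that is shared with the citric acid cycle, had the lowest median (-0.39, 4 of 4 genes negative). EdgeR called 0 of them (3.58% of all tested genes were lower), with 3 at an unadjusted p under 0.05 (13.3% of all). DESeq2 called Sdha and Sdhb, against 8.2% of all tested genes called lower. Sdha, the catalytic flavoprotein, was at 302, 296 and 326 CPM in KO and at 441, 541 and 439 CPM in WT. The groups were far apart, with WT replicate 2 above the other WT libraries. Its log2 fold change of -0.62 (SE 0.15) was just outside the threshold (edgeR adjusted p = 0.0510) and inside it with RLE factors (0.0487), a filter of 1 CPM in 3 libraries (0.0484), limma-voom (0.0469), no robust dispersion (0.0469) and DESeq2 (0.000261). With 1 library left out the adjusted p ran from 0.0676 to 0.187. Sdhb, the iron-sulfur subunit, was at 174, 193 and 189 CPM in KO and 246, 271 and 221 in WT, with no overlap (log2 -0.41, SE 0.13, adjusted p = 0.102). The membrane anchors Sdhc and Sdhd had a log2 of -0.37 with no overlap and of -0.28 with overlap. Sdhb and Sdhd were the most abundant genes of the complex per kb (216 ± 22.0 and 171 ± 37.4 CPM per kb in WT; SD, n = 3 each).

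The promoter window of Sdha is shown because it holds 3 matches to the NRF1 letters, at bases -98, -55 and -10 (chr13:74350191-74350490, minus strand, GRCm38.p6, RefSeq).
Sdha: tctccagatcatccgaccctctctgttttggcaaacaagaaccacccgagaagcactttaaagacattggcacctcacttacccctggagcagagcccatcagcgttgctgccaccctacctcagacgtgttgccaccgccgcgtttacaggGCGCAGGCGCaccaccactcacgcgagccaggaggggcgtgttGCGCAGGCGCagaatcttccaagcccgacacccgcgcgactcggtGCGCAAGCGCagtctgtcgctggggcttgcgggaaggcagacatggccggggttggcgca
The window of Ndufb4 in complex I, a gene with a log2 of -0.32, also held 3 such matches. Of the 3 windows found for complex II genes, 2 held NRF1 letters, against 10 of 40 windows in complex I. The letters stood in 1 of 5 windows in complex III, 1 of 14 in complex IV and 6 of 20 in complex V.

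In complex III, the cytochrome bc1 complex, all 9 genes were negative (median -0.28), 5 with no overlap. EdgeR called 0, with 4 at an unadjusted p under 0.05, and DESeq2 called 2. The shares of all tested genes lower in KO were 16.6% with no overlap, 3.58%, 13.3% and 8.2%, in that order. Uqcrq, a small subunit near the cytochrome b core, was at 211, 238 and 244 CPM in KO and at 319, 352 and 279 in WT. The groups did not overlap and the log2 fold change was -0.45 (SE 0.14, edgeR adjusted p = 0.1004). Uqcrb, a small subunit named for ubiquinone binding, had the same log2 of -0.45, with 3 near-identical genes in the annotation. The carriers of the electron path differed less: Cyc1, cytochrome c1, had a log2 of -0.28 with no overlap, and Uqcrfs1, the Rieske iron-sulfur protein, -0.23 with overlap. Per kb of transcript, Uqcr11 was the most abundant gene of the complex in WT (345 ± 58.9 CPM per kb, against 312 ± 31.4 for Uqcrh) and Uqcrh in KO (275 ± 14.4, against 266 ± 23.2 for Uqcr11; SD, n = 3 each). Uqcr11, a small subunit, had a log2 of -0.38 and Uqcrh, the hinge protein, of -0.18, both with overlap.

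Complex IV, cytochrome c oxidase, combines general subunits with isoforms that are used in single tissues. Of its 11 general subunits, 11 were negative (median -0.29), 8 had no overlap and 0 were called by edgeR. At an unadjusted p under 0.05 were 5, and DESeq2 called 3. Among all tested genes the shares lower in KO were 49.7%, 16.6%, 3.58%, 13.3% and 8.2%, in the same order. Ndufa4, first described as a complex I protein and now counted as a subunit of complex IV, was at 183, 186 and 214 CPM in KO and at 252, 315 and 249 in WT, a log2 of -0.48 (SE 0.15, edgeR adjusted p = 0.0946). Cox4i1, the general form of subunit 4, was among the most abundant members per kb (458 ± 37.6 in KO, 518 ± 80.3 CPM per kb in WT; SD, n = 3 each) and its groups overlapped at a log2 of -0.18, which was 0.04 with library size only. Cox7a2l, which joins complexes into supercomplexes, was level at a log2 of -0.0062 (SE 0.15), a sign that turned with other scalings.

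Cox6b2, the testis form of subunit 6b, was the 1 member that rose. The KO libraries held 39, 57 and 45 of its counts and the WT libraries 3, 2 and 5, or 1.65, 2.20 and 1.94 against 0.157, 0.116 and 0.267 CPM. Every KO library was far above every WT library. The log2 fold change was 3.37 (SE 0.44, edgeR adjusted p = 0.00911), the call held in 5 of 6 fits without 1 library (adjusted p = 0.0589 without KO replicate 2), and the ratio of summed CPM was 10.7 (95% interval 5.63 to 22.7, counting error only). It passed the filter on low counts only through the KO libraries, so that it had to differ. Its call, the fits without 1 library and the interval are therefore given as a description. Against its general partner Cox6b1 it stayed minor, at 1.395% ± 0.225 of that gene's CPM per kb in KO and 0.116% ± 0.0566 in WT (SD, n = 3 each). Its promoter window, shown as that of the 1 member that rose (chr7:4753045-4753344, minus strand, GRCm38.p6, RefSeq), holds 0 matches to the 4 motifs.
Cox6b2: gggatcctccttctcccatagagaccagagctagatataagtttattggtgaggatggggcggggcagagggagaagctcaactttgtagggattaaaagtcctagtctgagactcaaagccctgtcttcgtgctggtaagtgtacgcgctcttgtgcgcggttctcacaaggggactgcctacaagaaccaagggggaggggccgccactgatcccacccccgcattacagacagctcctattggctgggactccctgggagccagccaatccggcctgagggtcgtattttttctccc

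A muscle isoform stood apart in the same direction, below the filter for testing. Cox6a2, the heart and muscle form of subunit 6a, had 28, 14 and 9 counts in KO and 2, 0 and 0 in WT, a ratio of 19.3 (95% interval 5.07 to 164, counting error only). KO and WT did not overlap, and the gene was not tested. Since 1 other annotated gene overlaps Cox6a2, its few counts may hold reads of that gene. Cox7a1, also a heart and muscle form, was at 1.69, 1.58 and 1.81 CPM in KO and 0.523, 1.92 and 0.748 in WT. Its groups overlapped through WT replicate 2 (log2 0.68, SE 0.50, edgeR adjusted p = 0.430). With 1 library left out the log2 fold change ran from 0.36 to 1.41, the latter without WT replicate 2. Of these 6 edgeR fits 0 passed (adjusted p from 0.0868 to 0.663). Cox4i2, a lung form, had 4, 13 and 2 counts against 12, 0 and 14, and Ndufa4l2, a paralog of Ndufa4 induced by hypoxia, had a log2 of 0.18 (SE 0.31), both with overlap. Cox7b2 and Cox8c, testis forms, had 0 counts in every library, and Cox8b, a muscle form, had 2 counts in all. Of 13 markers of muscle and brown fat, 6 had 0 counts in every library (among them Myh2, Myh4, Myh7 and Ucp1) and 0 passed the filter. Their summed level was 0.517 to 1.23 CPM in KO and 0.291 to 0.481 CPM in WT, and its part in the counts of Cox6a2 was not tested.

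**Figure D4:**
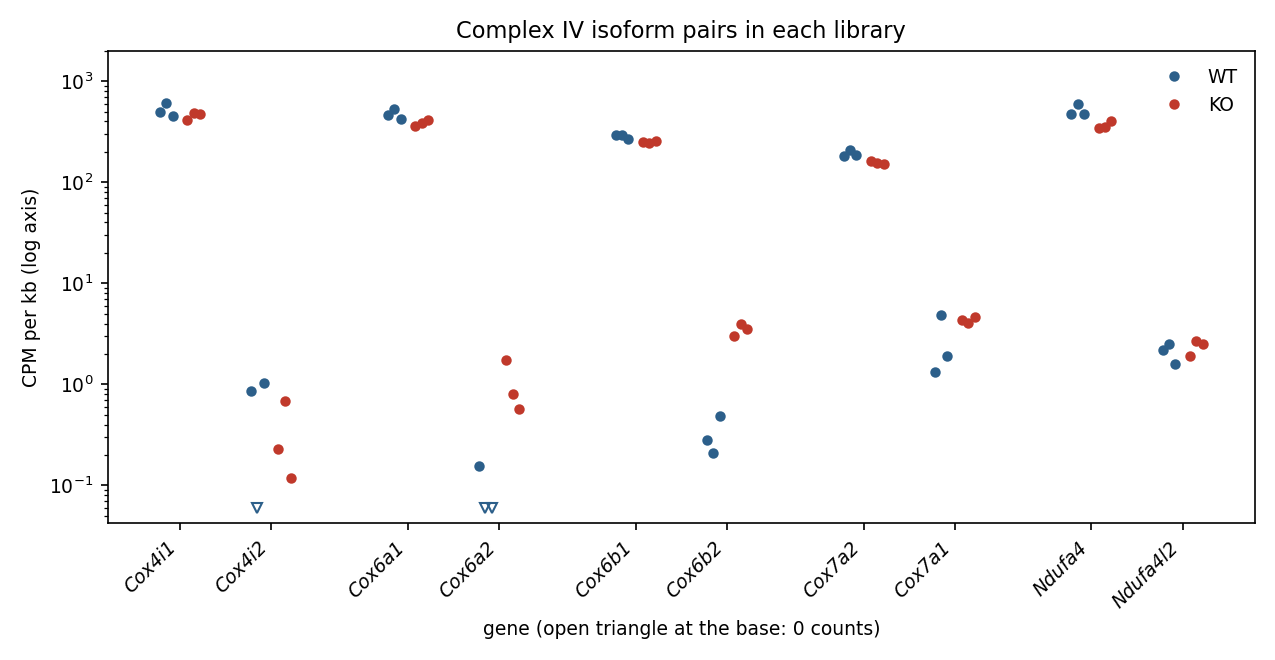
CPM per kb of transcript (log axis) of 5 pairs of complex IV genes in each library, the general form left and the tissue form right in each pair; open triangles mark libraries with 0 counts. The tissue forms lie far below their partners, and in Cox6b2 and Cox6a2 the 3 red KO points lie above all WT points.

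Complex V, the ATP synthase, held the most abundant member and the smallest summed difference. Of 17 tested genes 16 were negative (median -0.29), 10 had no overlap and 0 were called by edgeR. At an unadjusted p under 0.05 were 7, and DESeq2 called 1, Atp5sl, which is not a core subunit. Among all tested genes the shares lower in KO were 49.7%, 16.6%, 3.58%, 13.3% and 8.2%, in the same order. Of the 15 genes that encode subunits, 15 were negative, 9 had no overlap and 0 were called by DESeq2. The F1 head, where ATP is made, differed least: its 5 genes had a median of -0.20 (0.02 with library size only), and Atp5b, the catalytic beta subunit, was at 1226, 1244 and 1299 CPM in KO and at 1318, 1453 and 1254 in WT. Those groups overlapped (log2 -0.10, SE 0.16, edgeR adjusted p = 0.747; 0.12 with library size only). Per kb Atp5b was the highest of all members, at 656 ± 19.8 in KO and 700 ± 53.2 CPM per kb in WT (SD, n = 3 each). Atp5a1, the alpha subunit of the same head, was at 860, 884 and 956 CPM in KO and 1108, 1246 and 1024 in WT, with no overlap (log2 -0.32, adjusted p = 0.256).

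The membrane part and the stalk of complex V had slightly lower medians than the head, with overlapping ranges. The 7 genes of the stalk and the membrane part outside the c-ring had a median of -0.32 (from -0.36 to -0.16). The 5 genes of the head ran from -0.33 to -0.10. Of these, 5 were lower with no overlap, against 16.6% of all tested genes. The c-ring, which turns in the proton flow, is encoded by 3 genes for the same mature protein: Atp5g1 (log2 -0.31) and Atp5g3 (-0.27) had no overlap and Atp5g2 (-0.15, and 0.07 with library size only) did. Atp5g3 stood at 432 ± 19.7 CPM per kb in KO and 520 ± 44.8 in WT (SD, n = 3 each). Atp5l, subunit g, had a log2 of -0.34 with no overlap, but 9 other annotated genes are near-identical to it. Atp5sl, now named Dmac2 and known for the assembly of complex I, was at 13.1, 17.9 and 15.3 CPM in KO and at 22.9, 29.9 and 22.8 in WT. The groups did not overlap, and the log2 fold change of -0.71 (SE 0.17) missed the threshold (adjusted p = 0.0529). Atp5s, a coupling factor, had a log2 of 0.10 with wide overlap, and its sign changed with 1 library left out.

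Genes around the chain had medians nearer to that of all genes than the members had, but several of these lists also leaned lower in KO. KO lay below WT with no overlap in 33.3% of the assembly factors and 42.1% of the citric acid cycle list. The share was 40.0% in the chaperone list and 35.1% in the mitochondrial ribosome. It was 21.7% in the import list, 20.0% in other electron carriers and 6.25% in carriers and porins, against 16.6% of all tested genes. Of all tested genes edgeR called 3.58% lower and 3.36% higher, and DESeq2 8.2% and 7.11%. At an unadjusted p under 0.05 the shares were 13.3% and 12.5%. At that p, 13 assembly factors, 5 citric acid cycle, 7 chaperone list, 15 ribosome and 3 import genes were lower, and 2, 0, 2, 1 and 2 higher. In the same order, DESeq2 called 4, 4, 3, 4 and 2 lower and 0, 0, 2, 0 and 0 higher. Negative were 15 of 19 citric acid cycle, 17 of 25 chaperone list, 64 of 77 ribosome and 13 of 23 import genes, against 49.7% of all. Of 51 tested assembly factors of the complexes (7 of them members), 41 were negative, with a median of -0.24, and 1 was called lower: Timmdc1, an assembly factor of the complex I membrane arm, was at 25.2, 27.2 and 27.8 CPM in KO and 36.7, 40.8 and 36.3 in WT (log2 -0.50, SE 0.11, edgeR adjusted p = 0.0380). Among 19 genes of pyruvate dehydrogenase and the citric acid cycle the median was -0.10, and Pdhb, a subunit of pyruvate dehydrogenase, fell from 112, 138 and 132 CPM in WT to 83.1, 82.2 and 77.8 in KO (log2 -0.65, adjusted p = 0.0249). The median was -0.17 over 20 other electron carriers and coenzyme Q genes (0 called by edgeR, 5 lower at an unadjusted p under 0.05, 3 by DESeq2) and -0.17 over 77 genes of the mitochondrial ribosome, where Mrpl14 was lower (log2 -0.51, adjusted p = 0.0407). Over 16 carriers, porins and uncoupling proteins the median was -0.00042, with 0 calls by edgeR or DESeq2 and 1 higher gene at an unadjusted p under 0.05, and over 23 genes with symbols starting with Tomm or Timm, most of them of protein import, it was -0.07. The 1 gene called lower in that list was again Timmdc1, which its symbol placed in both lists. Of 25 chaperones, proteases and dynamics genes, Hspe1, the mitochondrial co-chaperonin, was lower (log2 -0.59, adjusted p = 0.0393; list median -0.22). Each of these edgeR calls was lost without any 1 of the KO libraries or without WT replicate 3. That of Timmdc1 was lost also without WT replicate 1 or 2 and that of Mrpl14 without WT replicate 2. The edgeR adjusted p-values in these fits were up to 0.141 for Timmdc1, 0.111 for Pdhb, 0.167 for Mrpl14 and 0.116 for Hspe1.

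Known regulators of these genes differed in sign. Ppargc1a and Ppargc1b, coactivators of mitochondrial gene expression, had log2 fold changes of -0.09 (SE 0.42) and -0.12 (SE 0.35), and Tfam, a transcription factor of mitochondrial DNA that also packs it, -0.0038 (SE 0.12), with overlapping groups in each. The DNA-binding factors Nrf1 (0.32, SE 0.19), Gabpa (-0.25, SE 0.16) and Esrra (0.17, SE 0.22) overlapped too, and none of these 6 genes passed with edgeR or DESeq2. A p that misses the threshold does not show that they were equal. Esrrg, an estrogen-related receptor, was at 0.0423, 0.309 and 0.259 CPM in KO and at 3.14, 1.16 and 2.94 in WT. It was low in all libraries and lower in KO with no overlap (log2 -3.52, SE 0.66, adjusted p = 0.0252), but it passed the filter on low counts only through the WT libraries, so that it had to differ and its call is given as a description. Pprc1, a coactivator related to Ppargc1a, was higher, at 21.2, 16.7 and 14.95 CPM in KO against 10.2, 10.9 and 9.77 in WT (log2 0.77, SE 0.17, adjusted p = 0.0383). These calls were lost without any 1 of the KO libraries or without WT replicate 3, and that of Pprc1 without WT replicate 1 (adjusted p of up to 0.0934 for Esrrg and 0.123 for Pprc1). Of the 23 regulators tested, 14 were negative, with a median of -0.08.

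**Figure D5:**
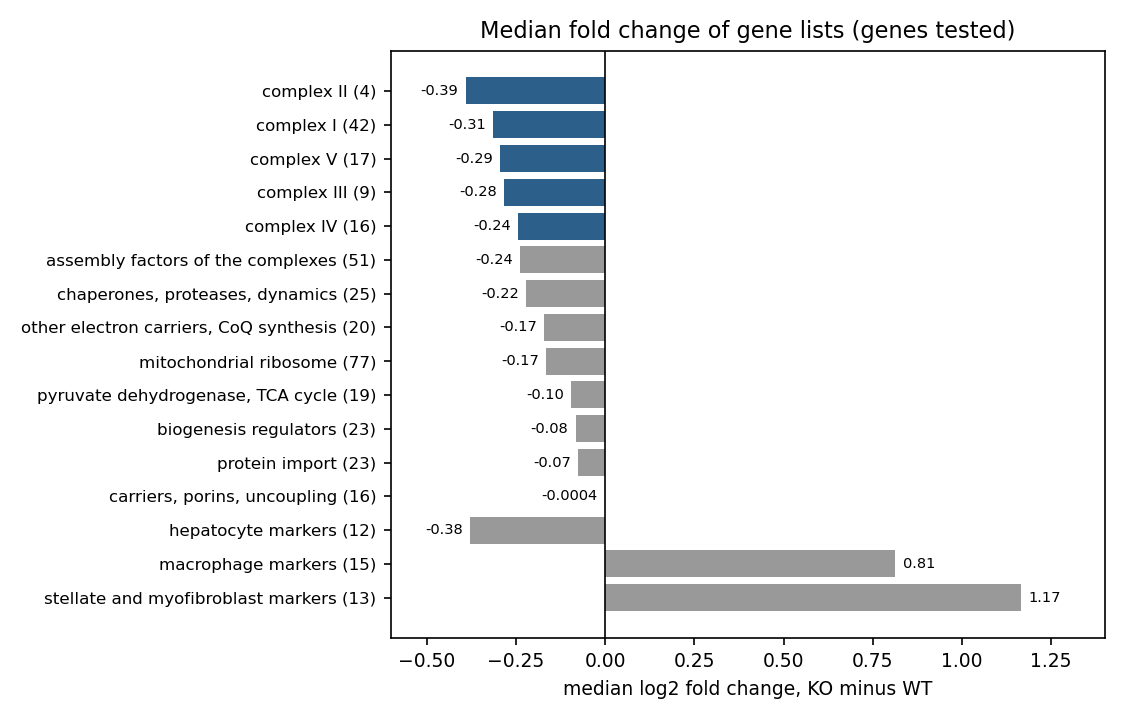
Median log2 fold change (KO minus WT) of the 5 complexes (blue) and of the pathway and cell type lists (grey), with the number of genes tested in brackets; only medians are drawn, with no error. The complexes lie between -0.39 and -0.24, most other mitochondrial lists nearer to 0, hepatocyte markers at -0.38, and macrophage and stellate cell markers at 0.81 and 1.17.

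Markers of some liver cell types differed between the genotypes as well. In bulk samples fewer cells of a type and less RNA per cell cannot be told apart. Of 12 hepatocyte markers 9 were negative (median -0.38, 5 lower with no overlap, 1 called lower), and none was at 0. Their summed level was 134000 to 157700 CPM in KO and 118800 to 184000 CPM in WT, which overlapped. Of 15 macrophage markers 4 rose (Cd9, Clec4f, Trem2 and Vsig4; median 0.81), with a sum of 3272 to 3839 CPM in KO and 1309 to 3184 in WT, and of 13 markers of stellate cells and myofibroblasts 6 rose, collagens among them (median 1.17), with 1022 to 1350 CPM against 343 to 567. No marker of either list was at 0. The called shares were 8.33% in the hepatocyte, 26.7% in the macrophage and 46.2% in the stellate cell list. Of all tested genes, edgeR called 3.58% lower and 3.36% higher, and 16.6% were lower with no overlap. Each call in the hepatocyte, macrophage and stellate cell lists held in 1 to 4 of the 6 fits without 1 library, and none held without KO replicate 2. The highest adjusted p over these fits ran from 0.0669 for Pdgfra to 0.157 for Dcn. Endothelial, cholangiocyte and lymphocyte markers had medians of -0.51, 0.40 and -0.60, with 0 calls by edgeR or DESeq2 and at most 2 genes in a direction at an unadjusted p under 0.05. Their part in the lower levels of the members was not tested.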

How the data were processed

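RNA was sequenced from 6 liver samples, 3 per genotype. Samples were grouped by the labelled genotype; replicate numbers follow accession order and pair nothing. Per the labels' protocols, Trizol was used on frozen tissue and 1 µg of RNA went into each Illumina TruSeq library. The authors deposited whole-number read counts per gene symbol, not normalized. The submitters' processing notes list STAR 2.5, featureCounts, Subread 1.5.3, edgeR 3.20.8 and mm10. Their roles, the annotation, the strand setting and the handling of reads that match several genes were not given in the sources used here, so members with a near-identical gene (22, at 95% identity over 200 bases by BLAST+ 2.17.0) or an overlapping gene (25) are uncertain. Totals of 18882220 to 24098512 counts set the counting error, and intervals cover only that.

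The test was edgeR 4.0.16 (R 4.3.3) on all 6 libraries. Low counts were removed by filterByExpr (minimum count 10 per library, 15 in total), sizes were scaled by TMM, and dispersion was estimated robustly. The quasi-likelihood F-test was two-sided, and its p-values were adjusted by Benjamini-Hochberg over all 12945 genes that passed; 0.05 was the threshold. Standard errors are the log2 fold change over the root of F. CPM values were computed here from the deposited counts and scaled by TMM factors. CPM per kb uses the median length of the principal transcripts in GENCODE mouse release 21, where all 93 members were found. The script was tested on simulated data, in which small differences were mostly missed and the share of false calls was above the threshold. The labels call these separate samples and say no more. P-values thus measure the spread between these samples, which may be technical. For 3 libraries against 3, the smallest p of an exact permutation test is 0.1. All pairs of libraries within a group differed by more than sampling noise.

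Members and lists were chosen with earlier results of these data known. Lists are described by counts and medians, with no test. Of the members, 1 is not reported here by name. Genes named are the called members, those with the largest change in either direction and the 2 highest per kb in each complex, tissue isoforms with their partners, members that are not core subunits, up to 6 called genes per pathway list, 6 regulators and Sesn3. Ndufs5, Ndufb4, Atp5l, Ndufs6, Ndufs7, Ndufs8, Ndufa8, Ndufc1, Sdhc, further members given by their log2 value and the called markers of cell types were named after their values were seen. The fit was repeated with RLE factors, with upper-quartile factors, with library size alone, without a filter, with a filter of 1 CPM in 3 libraries, with DESeq2 1.42.0, with limma-voom (limma 3.58.1), without robust dispersion and without each library. Promoter windows came from RefSeq (GRCm38.p6). Figures were drawn with matplotlib 3.10.9.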

Additional observations from a re-analysis of the deposited data

How the results depend on the processing

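No paired analysis was possible because the replicate numbers follow accession order and the labels tie no KO sample to a WT sample. The negative direction of the members' median and of the medians of all 5 complexes held under every alternative run. That of the complexes' summed CPM held with RLE factors and with library size only, the only alternatives for which the sums were recomputed. With library size only, the members' median was -0.087, and the summed CPM of complexes I to V differed by a log2 of -0.10, -0.25, -0.094, -0.051 and -0.014 (-0.31, -0.46, -0.31, -0.26 and -0.23 with TMM factors). The number of members called moved from 3 to 1 with library size only and to 19 with DESeq2, which called 1982 genes in all against 898. By complex, DESeq2 called 10, 2, 2, 4 and 1 members of complexes I to V against 2, 0, 0, 1 and 0. In complex I, 1 gene was called with upper-quartile factors, 1 with no filter on low counts and 0 with library size only. In complex II, Sdha was the 1 gene called with RLE factors, the 1 CPM filter, limma-voom and no robust dispersion, and in complex V 1 gene, Atp5sl, with no filter. With each library left out, the calls ranged from 101 to 962 over all genes, from 0 to 2 over the members, from 0 to 1 in complex I and from 0 to 1 in complex IV, with 0 in the others, and the members' median from -0.34 to -0.21.

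Signs turned in genes near 0. With library size only, the log2 fold change was 0.040 in Cox4i1, 0.12 in Atp5b, 0.025 in Cox6b1, 0.21 in Cox7a2l, 0.065 in Atp5g2, 0.11 in Ppargc1a, 0.10 in Ppargc1b and 0.21 in Tfam. Cox7a2l and Tfam were at 0.047 and 0.050 with upper-quartile factors, 0.0082 and 0.0096 with no filter, 0.0033 and 0.0051 with the 1 CPM filter, and Tfam at 0.0019 with limma-voom. With 1 library left out, the log2 fold change ran from -0.18 to 0.48 in Atp5s, from -0.10 to 0.10 in Cox7a2l, from -0.56 to 0.26 in Ppargc1a, from -0.34 to 0.30 in Ppargc1b and from -0.053 to 0.090 in Tfam. The cause of these changes was not tested. Depth limits Cox6b2, Cox6a2 and Cox4i2, which rest on few counts, and 5 members could not be tested.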
